A study of Mus musculus with 6 samples.

Results

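Glucose metabolism was examined through 37 genes, which encode glucose transporters, the enzymes and PFKFB regulators of glycolysis, lactate dehydrogenases and monocarboxylate transporters, the pyruvate dehydrogenase step with its kinases and carrier, and pentose phosphate enzymes. The genes were chosen with earlier results of these data known. Their probes were taken by name and not by value, as every array probe whose annotation names a member. This gave 56 of the 55681 probes and 74 of the 59305 spots of the array, for 37 of the 22584 genes that could be named. RNA came from 1G11 cells, a mouse microvascular endothelial line, labeled as of strain C57BL/6NCrLBR. The 3 1G11-mock arrays are control cells without SOD3 overexpression, and the 3 1G11-SOD3 arrays are the same line overexpressing SOD3, the extracellular superoxide dismutase. Conditioned medium of N202.1A murine mammary cancer cells was given to both lines for 6 h, so no group shows cells without that medium. Each group is thus 1 cell line, and its 3 arrays are labeled as separate samples of that line. All 6 arrays were on 1 slide, each line in a slide row of its own, so that slide row and line cannot be told apart.

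Glycolysis splits glucose into pyruvate in a hexose phase, which spends ATP and ends at aldolase, and a triose phase, which returns ATP and NADH. Endothelial cells are known to draw much of their ATP from this route and to release lactate, with PFKFB3, a maker of the activator fructose 2,6-bisphosphate, as a well-studied regulator of vessel sprouting. Pyruvate is either reduced to lactate and exported or imported into mitochondria for pyruvate dehydrogenase, which the kinases PDK1 to PDK4 switch off. The pentose phosphate pathway branches from glucose 6-phosphate and makes ribose and the NADPH used against oxidants.

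Spots in a block of 128 rows and 55 columns in the middle of the array, which has 384 rows and 164 columns, read dim on the 1G11-mock arrays. Over probes printed both there and elsewhere, the middle copies minus the others gave -0.83, -1.17 and -2.72 log2 units on the 1G11-mock arrays and values between -0.19 and 0.20 on the 1G11-SOD3 arrays. A dim spot on the 1G11-mock arrays alone reads as a rise in 1G11-SOD3, so the 6 member spots in the middle are given apart. Between 34.2% and 43.8% of spots were well above background per array, and none was saturated. *Sod3* itself has a single probe, in the middle. It read 13.61, 12.66 and 9.86 on the 1G11-mock arrays and 16.37, 16.30 and 16.26 on the 1G11-SOD3 arrays, a log2 difference of 4.27 (adjusted p = 0.00763) that was 2.73 after the position adjustment described below. Of 10 endothelial markers with a probe outside the middle, 5 were well above background on any array, among them *Eng*, *Kdr*, *Vwf* and *Pecam1*, while *Cdh5* (VE-cadherin), *Tek*, *Tie1*, *Emcn* and *Erg* were on none. The epithelial list had 3 such genes of 6, among them *Krt19*, and the leukocyte list 1 of 5, *Cd3e*. *Krt19* read between 15.40 and 16.76 over the arrays, brighter than every endothelial marker. *Cdh1*, of the epithelial list, was well above background on the 1G11-SOD3 arrays only. What these readings mean for the identity of the cells was not tested.

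Outside the middle, 3 of the 51 member probes were called, that is, had an adjusted p under 0.05 and a difference beyond 2-fold. These were *Aldoc*, *Eno2* and *Pdk3*, all higher in 1G11-SOD3. Over all probes outside the middle 1.86% were called, and 0.660% were called as higher in 1G11-SOD3. The 3 genes are 8.33% of the 36 members that have a probe outside the middle, against 3.08% of all named genes. Among genes that carry the bulk flux in most cells, *Aldoa*, *Gapdh*, *Eno1*, *Pkm2* and *Ldha* had log2 differences between -0.27 and 0.18 on their brightest probes. *Hk1*, *Gpi1* and *Tpi1* differed by -0.38, -0.36 and 0.60. None of these genes passed outside the middle. Over the 36 genes, each represented by its brightest probe, 18 differences were above 0 and 18 below, with a median of 0.02 log2 units against -0.06 over all named genes. The 1G11-SOD3 and 1G11-mock arrays did not overlap for 17 of 49 member probes with a value on every array, 9 of them with 1G11-SOD3 above and 8 with it below. That is 34.7%, against 19.7% of all probes outside the middle. These shares, here and below, were not compared at like brightness. Of the 51 member probes, 46 were well above background on every array, against 15248 of all 49526 probes outside the middle. What part brightness had in the shares was not tested.

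**Figure D1:**
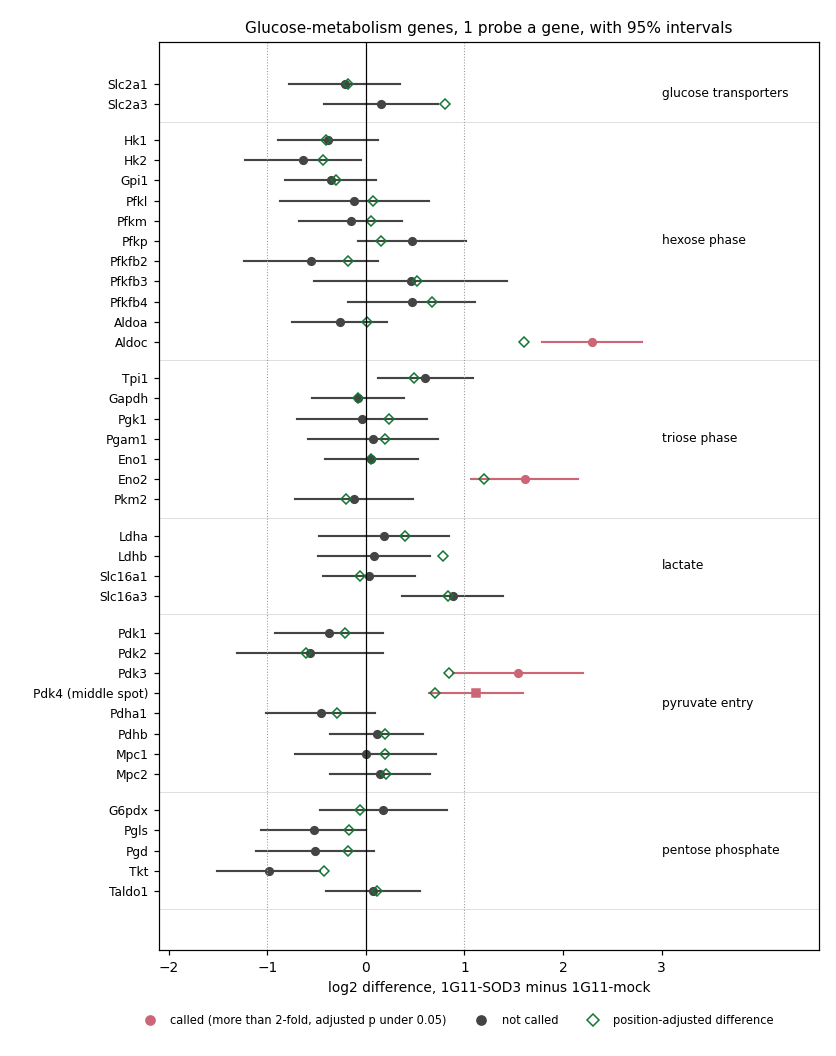
Log2 difference between 1G11-SOD3 and 1G11-mock for each gene, grouped by step (y axis). Circles are the brightest probe outside the middle (the square for Pdk4 is a middle spot), bars are 95% intervals, open diamonds are position-adjusted differences and dotted lines mark 2-fold. Aldoc, Eno2 and Pdk3 sit above 1.5 and the other circles between -0.99 and 0.88.

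*Aldoc* encodes aldolase C, the aldolase known from brain, which cleaves fructose 1,6-bisphosphate like the widespread aldolase A. It read 7.42, 7.13 and 7.16 log2 units on the 1G11-mock arrays, where no array had it well above background, and 9.82, 9.44 and 9.34 on the 1G11-SOD3 arrays, where it was on all 3. The lines did not overlap. The limma test of the difference gave an adjusted p of 0.000451. Set against the lowest signal that counted as well above background, *Aldoc* was at least 3.01-fold higher in 1G11-SOD3, a bound that was not itself tested. This bound was taken before the position adjustment. The probe lies at chr11:78140198-78140257 on the plus strand in the array annotation, whose build the files do not give, and starts at base 1637 of its transcript. *Aldoa*, in contrast, differed by -0.27 (95% interval -0.75 to 0.22).

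*Eno2* encodes gamma-enolase, the neuronal isoform of the enzyme that makes phosphoenolpyruvate. Its values were 9.39, 8.95 and 8.67 on the 1G11-mock arrays and 10.81, 10.57 and 10.46 on the 1G11-SOD3 arrays. Every 1G11-SOD3 array lay above every 1G11-mock array, and the probe was well above background on all 6. The log2 difference was 1.61 ± 0.25 (SE, n = 3 per line), or 3.05-fold, with an adjusted p of 0.00545. Its probe is annotated at chr6:124710388-124710447 on the minus strand. *Eno1*, the general enolase, differed by 0.05 (95% interval -0.42 to 0.53). Its transcript has near-identical copies elsewhere in the genome that the probe may not separate.

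*Pdk3* encodes one of the kinases that inhibit pyruvate dehydrogenase. It read 10.29, 10.10 and 9.15 on the 1G11-mock arrays and 11.59, 11.39 and 11.19 on the 1G11-SOD3 arrays. The 1G11-mock array of replicate 3 was the lowest, and the lines did not overlap. The log2 difference was 1.54 ± 0.30 (SE, n = 3 per line), or 2.91-fold, with an adjusted p of 0.0190. The probe is annotated at chrX:91010227-91010286 on the minus strand. This call was lost without 1G11-mock replicate 2 (log2 difference of 1.69, adjusted p = 0.0554) and without 1G11-SOD3 replicate 1 (1.43, adjusted p = 0.0810), 2 (1.53, adjusted p = 0.0538) or 3 (1.64, adjusted p = 0.0582).

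**Figure D2:**
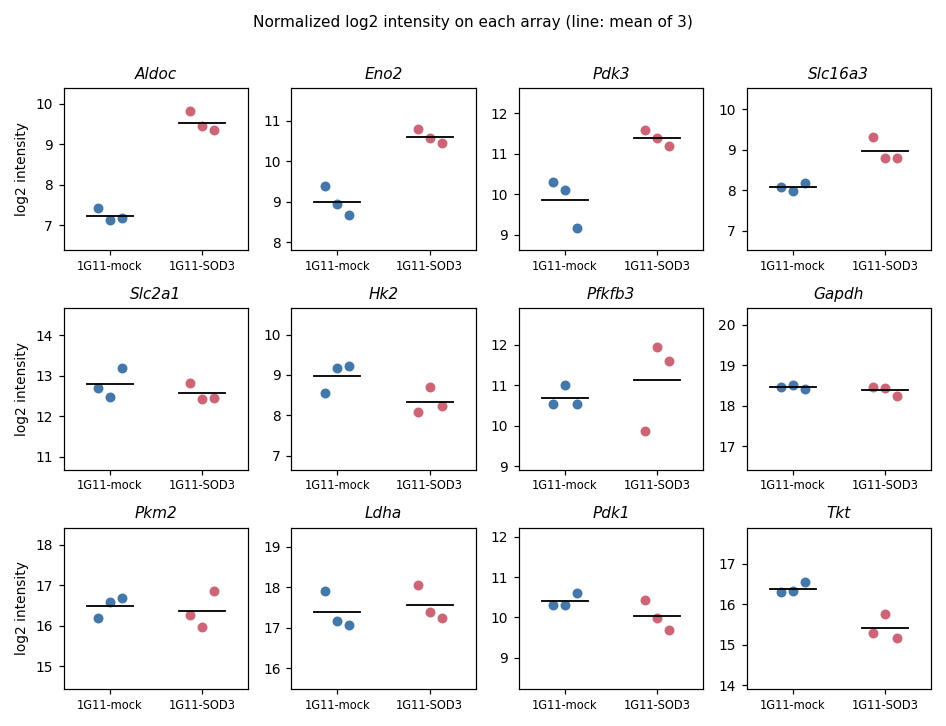
Normalized log2 intensity (y axis, a span of 4 units in every panel) of 12 genes on each of the 3 1G11-mock and 3 1G11-SOD3 arrays, with the mean as a line. The lines do not overlap for Aldoc, Eno2, Pdk3 and Slc16a3, with 1G11-SOD3 above, nor for Tkt, with 1G11-SOD3 below.

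All 3 called spots lay beside the middle of the array. The *Aldoc* spot was 6 rows beyond its edge, the *Eno2* spot 6 columns and the *Pdk3* spot 1 column. Of the 51 member probes, 6 lay in a band of 10 rows and 6 columns around the middle, and 3 of these 6 were called higher, against 0 of the 45 farther out or averaged over several spots. Over all probes, 2.63% in the band and 0.555% farther out were called higher. The other 3 member probes in the band, for *Pkm2*, *Pdk2* and *Mpc1*, differed by -0.12, -0.73 and 0.48. The position adjustment takes from each spot the smoothed deviation of its bright neighbors on the same array, its own spot left out. At the *Aldoc*, *Eno2* and *Pdk3* spots this neighborhood was itself 1.24, 0.87 and 1.13 log2 units higher on the 1G11-SOD3 arrays, where the median over member probes was 0.32. After the adjustment *Aldoc* was still called (adjusted p = 0.00338), with no size to be given, as its 1G11-mock spots were near background. The bound of 3.01-fold holds for the unadjusted values only. *Eno2* differed by 1.201 (adjusted p = 0.0107) and *Pdk3* by 0.84 (adjusted p = 0.0524). Thus 2 of 51 member probes were called, 3.92%, against 1.87% of all probes outside the middle, and *Pdk3* was not.

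**Figure D3:**
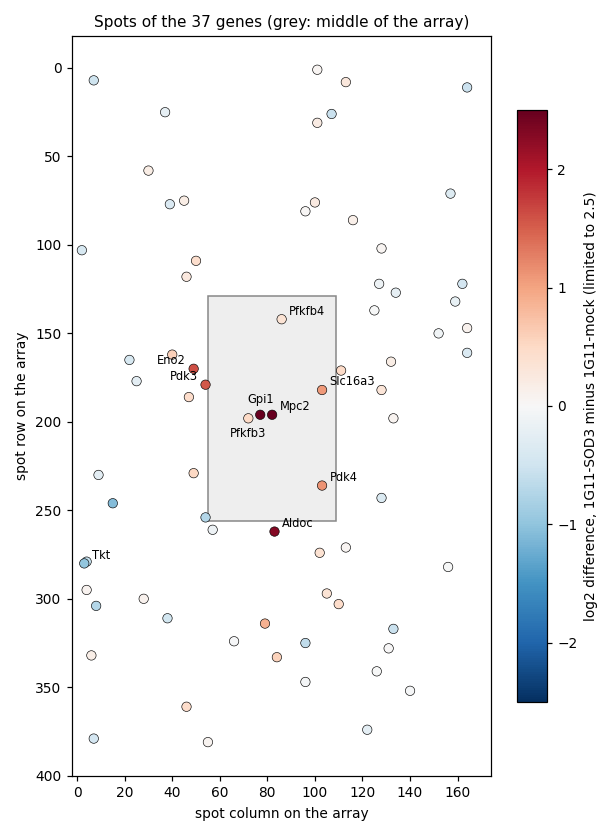
Array position of every member spot (x axis, column; y axis, row), colored by its log2 difference between 1G11-SOD3 and 1G11-mock, with the middle shaded. The 3 called spots outside, Aldoc, Eno2 and Pdk3, lie next to the shaded area, and Tkt lies at the left border.

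Because *Aldoc*, *Eno2* and *Pdk3* were the called genes, their promoters are printed here. Each is a RefSeq window of 250 bases before and 50 after a transcription start, 5′ to 3′ on the gene's strand, in GRCm38.p6. Capitals mark ACGTG and GCGTG on either strand, the core letters of the element that hypoxia-inducible factors bind. ACGTG is also part of the palindromic E-box CACGTG, so a single E-box gives a match on each strand.
*Aldoc* (chr11:78322823-78323122, plus strand): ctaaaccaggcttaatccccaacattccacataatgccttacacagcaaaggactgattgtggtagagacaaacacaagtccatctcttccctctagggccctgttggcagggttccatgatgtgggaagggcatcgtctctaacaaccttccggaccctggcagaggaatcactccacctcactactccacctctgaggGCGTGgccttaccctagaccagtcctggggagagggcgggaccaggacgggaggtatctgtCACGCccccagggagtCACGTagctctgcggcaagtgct
*Eno2* (chr6:124769624-124769923, minus strand): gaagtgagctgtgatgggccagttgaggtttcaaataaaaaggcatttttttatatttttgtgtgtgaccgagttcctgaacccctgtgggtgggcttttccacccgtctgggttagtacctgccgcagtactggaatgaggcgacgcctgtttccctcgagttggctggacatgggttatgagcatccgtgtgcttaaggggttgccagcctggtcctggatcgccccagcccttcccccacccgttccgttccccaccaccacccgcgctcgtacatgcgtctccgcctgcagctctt
*Pdk3* (chrX:93832101-93832400, minus strand): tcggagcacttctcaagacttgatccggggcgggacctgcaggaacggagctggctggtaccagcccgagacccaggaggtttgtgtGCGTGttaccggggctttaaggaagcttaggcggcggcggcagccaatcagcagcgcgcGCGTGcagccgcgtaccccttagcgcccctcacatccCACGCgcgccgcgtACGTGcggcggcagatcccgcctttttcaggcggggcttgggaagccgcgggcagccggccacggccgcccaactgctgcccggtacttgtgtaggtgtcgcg
The *Aldoc* window holds 1 ACGTG and 2 GCGTG, the *Pdk3* window 1 and 3, and the *Eno2* window neither. *Aldoc* has another window, at chr11:78323948-78324247, with 1 GCGTG. Windows were found for 36 of the 37 members, all but *Slc2a3*. Of their 54 windows 43 held either motif (79.6%), against 43.8% of all 32851 windows, and 23 held ACGTG (42.6%, against 19.6%). Most of these genes were not called, and a match of 5 letters is a description and not a bound site. Windows of the same gene can overlap and hold the same sites, as for *Eno1* and *Aldoa*, so these shares count some sites more than once. The windows were not matched for base composition, and its part in the shares was not tested.

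Neither glucose transporter was called. *Slc2a1*, which encodes GLUT1, read 12.70, 12.47 and 13.20 on the 1G11-mock arrays and 12.82, 12.44 and 12.46 on the 1G11-SOD3 arrays. The arrays of the lines were interleaved, and the log2 difference of -0.22 had a 95% interval of -0.78 to 0.34. *Slc2a3* (GLUT3) stayed near background on all 6 arrays.

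In the hexose phase, *Aldoc* was the called gene of 11. Of the 11 differences 7 were below 0, against 11652 of all 20654 named genes. *Hk2*, an inducible hexokinase, read 8.55, 9.17 and 9.22 in 1G11-mock and 8.08, 8.70 and 8.25 in 1G11-SOD3. These values overlapped, while same-numbered arrays differed by -0.47, -0.48 and -0.97. The log2 difference of -0.64 (95% interval -1.23 to -0.05) had an adjusted p of 0.297, and of 0.181 in the fit paired by replicate number. The brighter *Hk1* probe differed by -0.38. The other *Hk1* probe read 10.63, 11.42 and 12.33 in 1G11-mock and 10.51, 10.46 and 10.16 in 1G11-SOD3, a difference of -1.08 with an adjusted p of 0.172. Without 1G11-mock replicate 1 it was -1.50 (adjusted p = 0.0290) and passed. *Hk1* encodes the hexokinase found in most tissues.

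*Gpi1*, glucose 6-phosphate isomerase, has a pair of probes outside the middle. The brighter read 17.01, 17.03 and 17.14 in 1G11-mock and 16.62, 16.77 and 16.72 in 1G11-SOD3, and the other differed in the same direction. Their log2 differences were -0.36 (adjusted p = 0.488) and -0.42 (adjusted p = 0.452), without overlap between the lines for either and under 2-fold. The phosphofructokinases that commit glucose to glycolysis, *Pfkl*, *Pfkm* and *Pfkp*, differed by -0.12, -0.15 and 0.47. *Pfkm* is printed 10 times, and its copies ranged from -0.59 to 0.04.

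*Pfkfb3* read 10.53, 11.001 and 10.53 in 1G11-mock and 9.87, 11.94 and 11.61 in 1G11-SOD3. Within 1G11-SOD3 the array of replicate 1 was below every 1G11-mock array and the other two were above. The log2 difference of 0.45 had a 95% interval of -0.52 to 1.43. It was 1.07 without 1G11-SOD3 replicate 1, 0.055 without replicate 2 and 0.23 without replicate 3 of that line, and passed the test in none of these. Its relatives *Pfkfb2* and *Pfkfb4* differed by -0.56 and 0.46, neither past the test.

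In the triose phase, *Eno2* was the called gene of 7, and the other 6 lay between -0.12 and 0.60. *Tpi1*, triose phosphate isomerase, read 15.78, 15.95 and 15.54 in 1G11-mock and 16.28, 16.42 and 16.38 in 1G11-SOD3. The lines did not overlap, but the difference of 0.60 had an adjusted p of 0.216, and another *Tpi1* probe differed by 0.10. *Gapdh* read 18.45, 18.52 and 18.40 in 1G11-mock and 18.47, 18.44 and 18.23 in 1G11-SOD3. Its log2 difference was -0.08 (95% interval -0.55 to 0.39), and its 7 probes, which recognize a sequence with many processed copies in the genome, ranged from -0.73 to 0.38. After the position adjustment these 7 lay between -0.14 and 0.25.

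*Pkm2*, the name the array gives to pyruvate kinase M (now Pkm), read 16.18, 16.59 and 16.68 in 1G11-mock and 16.27, 15.96 and 16.86 in 1G11-SOD3. The arrays were interleaved, with a difference of -0.12 and a 95% interval of -0.72 to 0.48. The probe does not separate the M1 and M2 isoforms by anything stated in its annotation. *Pgk1* and *Pgam1*, phosphoglycerate kinase and mutase, differed by -0.04 and 0.07. The *Pgk1* probe is annotated on chr3 while the gene lies on the X chromosome, so its signal may include a copy.

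Of the 4 lactate genes none was called. All 4 differences were above 0, with *Ldhb* (0.08) and *Slc16a1* (0.03) close to it, against 9002 of all 20654 named genes. *Ldha*, the A subunit of lactate dehydrogenase, read 17.91, 17.16 and 17.07 in 1G11-mock and 18.06, 17.39 and 17.24 in 1G11-SOD3. In both lines replicate 1 was the highest, and the lines overlapped, while same-numbered arrays differed by 0.15, 0.23 and 0.17. The fit paired by replicate number gave an adjusted p of 0.73. The log2 difference was 0.18 (95% interval -0.48 to 0.84). The 3 *Ldha* probes differed by 0.18, 0.57 and 0.29. On the probe with 0.57, 1G11-SOD3 was lower in replicate 2 (15.10 against 15.42) and higher in replicates 1 and 3. *Ldhb*, the B subunit, differed by 0.08.

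*Slc16a3* encodes MCT4, the lactate exporter of highly glycolytic cells. Its probe outside the middle read 8.08, 7.98 and 8.18 in 1G11-mock, close to background, and 9.31, 8.79 and 8.79 in 1G11-SOD3, well above it on all 3. The lines did not overlap. Set against the lowest signal well above background, the measured mean was at least 1.79-fold higher in 1G11-SOD3. The log2 difference had a 95% interval of 0.37 to 1.39, so a smaller rise is within the error. Its adjusted p of 0.0739 misses the threshold. After the position adjustment the adjusted p was 0.0699, with no size to be given, as the 1G11-mock spots were near background. *Slc16a1*, which encodes the transporter MCT1, differed by 0.03 and was well above background on 2 arrays, both of 1G11-SOD3.

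At pyruvate entry *Pdk3* was the called gene of 7. *Pdk1* read 10.30, 10.32 and 10.61 in 1G11-mock and 10.43, 9.99 and 9.69 in 1G11-SOD3. The arrays overlapped, with a difference of -0.37 (95% interval -0.92 to 0.18). The *Pdk2* probes differed by -0.56 (adjusted p = 0.497) and -0.73 (adjusted p = 0.150). The subunits *Pdha1* and *Pdhb* of the E1 component differed by -0.46 and 0.11, and *Mpc1*, a subunit of the mitochondrial pyruvate carrier, by 0.00 on its brighter probe and 0.48 on the other.

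*Mpc2*, which encodes the partner of MPC1, is printed 10 times, 9 of them outside the middle. The mean of the 9 copies read 13.45, 13.22 and 12.90 in 1G11-mock and 13.27, 13.24 and 13.48 in 1G11-SOD3. The lines overlapped, and the difference was 0.14 (95% interval -0.37 to 0.65). Taken singly, the 9 copies ranged from -0.48 to 0.52, a spread of the same sequence across the arrays.

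No pentose phosphate gene was called, and *Tkt* came nearest. *Tkt* encodes transketolase, of the non-oxidative branch, and is described because its values were near the threshold. It read 16.30, 16.32 and 16.54 in 1G11-mock and 15.29, 15.76 and 15.16 in 1G11-SOD3. Every 1G11-SOD3 array was lower, by a log2 difference of -0.99 ± 0.24 (SE, n = 3 per line) or 1.98-fold, with an adjusted p of 0.0499. The fold missed the 2-fold limit. It passed with median pixel intensities (-1.02, adjusted p = 0.0449) and in the deposited table (-1.01, adjusted p = 0.0451). Both settings gave nearly the same values, with 1665 and 1666 features called, and are not independent checks. The position-adjusted difference of *Tkt* was -0.43 (adjusted p = 0.269). With the processed signal it was -0.10 (adjusted p = 0.831), where all features shifted by -0.52.

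*G6pdx* encodes glucose 6-phosphate dehydrogenase, the entry and main control point of the oxidative branch. It read 16.18 and 15.40 on the 1G11-mock arrays of replicates 2 and 3, its spot on that of replicate 1 being left out as an outlier, and 15.90, 16.01 and 15.98 in 1G11-SOD3. The 1G11-SOD3 values fell between the pair of 1G11-mock values. The log2 difference from 5 arrays was 0.18 (95% interval -0.47 to 0.82). The later oxidative enzymes *Pgls* and *Pgd* differed by -0.53 and -0.52, neither past the test, and *Taldo1*, transaldolase, by 0.07.

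Of the 48 member probes outside the middle that were not called, 31 had a 95% interval that lay wholly within 2-fold in either direction. For the other 17 a change beyond 2-fold was not excluded by the interval. An unadjusted p under 0.05 was reached by 10 of all 51 (19.6%), against 12.7% of all probes outside the middle, again without matching for brightness.

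In the middle, 4 of the 6 member spots were called, all higher in 1G11-SOD3, against 12.0% of all features there. As the place was known to read dim on 1G11-mock arrays, these values are a description. They can be set beside spots of nearly the same sequence outside. All 3 *Gpi1* probes share a run of 40 bases, whose first 30 are given without capitals, as are those of the 53 bases shared by both *Slc16a3* probes.
*Gpi1* shared run: tatttcacaccccagctagaataaagacac
*Slc16a3* shared run: gtggtctgttcaccctgagtcccacccttt
The *Gpi1* probe in the middle read 14.40, 11.16 and 11.88 in 1G11-mock and 16.83, 16.15 and 17.10 in 1G11-SOD3. Its difference was 4.21 (adjusted p = 0.00511), where the probes outside gave -0.36 and -0.42, and after the position adjustment it was 1.62 (adjusted p = 0.0615). The middle copy of the *Mpc2* probe read 9.86 and 8.99 in 1G11-mock, replicate 2 being left out as an outlier, and 13.17, 12.96 and 13.69 in 1G11-SOD3. Its difference of 3.85 compares with 0.14 for the 9 copies outside, which have the identical sequence, and 1.36 remained after the adjustment (adjusted p = 0.0218).

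**Figure D4:**
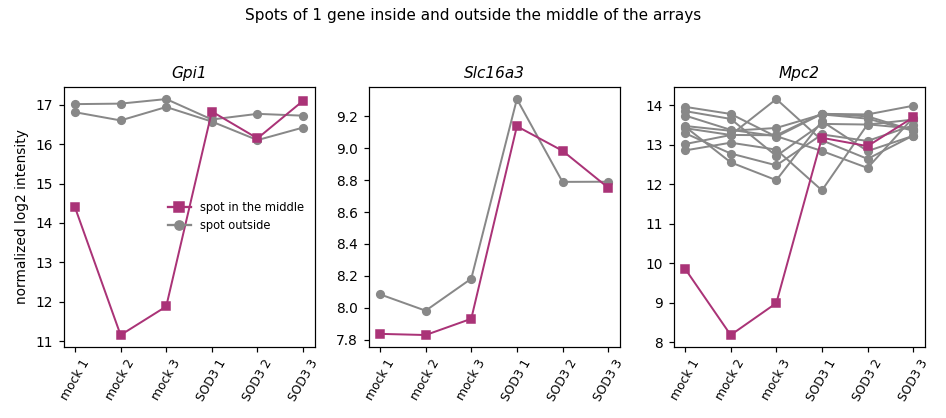
Normalized log2 intensity (y axis) on each array (x axis) of every spot of Gpi1, Slc16a3 and Mpc2, in the middle (squares) and outside (circles). The middle spots of Gpi1 and Mpc2 drop on the 1G11-mock arrays while the spots outside do not, and both Slc16a3 spots run side by side.

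For *Slc16a3* the unadjusted values of both places were similar. The middle spot read 7.84, 7.83 and 7.93 in 1G11-mock and 9.14, 8.98 and 8.75 in 1G11-SOD3, well above background on the 1G11-SOD3 arrays only. Without the position adjustment, the limma test of the difference at this spot gave an adjusted p of 0.0210. The bound, not itself tested, was 1.93-fold, beside 1.79-fold outside. The neighborhood of the middle spot was itself 1.16 log2 units higher on the 1G11-SOD3 arrays. After the position adjustment this spot was not called (adjusted p = 0.274). No adjusted size can be given, as its 1G11-mock values were near background. The bound of 1.93-fold holds for the unadjusted values only. *Pdk4*, a kinase induced by fasting and fatty acids, has only a middle spot. It read 8.86, 8.80 and 8.87 in 1G11-mock and 10.12, 10.001 and 9.76 in 1G11-SOD3, a difference of 1.11 (adjusted p = 0.0183) that was 0.70 after the adjustment (adjusted p = 0.0809). The middle probes of *Pfkfb3* and *Pfkfb4* stayed near background on all 6 arrays.

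Of 60 further genes of the pathway and its regulators, 59 were found on the array and 51 had a probe outside the middle. Of these, *Pgm1*, phosphoglucomutase 1, which interconverts glucose 1-phosphate and glucose 6-phosphate, was the only called gene. That is 1.96%, a smaller share than the 3.08% of all named genes. It read 14.40, 14.52 and 13.66 in 1G11-mock and 15.43, 15.37 and 15.22 in 1G11-SOD3. The lines did not overlap, and the difference of 1.14 (adjusted p = 0.0405) was 1.16 after the position adjustment (adjusted p = 0.0164). The 51 genes had a median of 0.02 log2 units, with 26 above 0 and 25 below. In the middle, *Pdhx*, which encodes a pyruvate dehydrogenase subunit, was called, with a difference of 2.17 that was 0.17 after the adjustment. *Hif1a* and *Epas1*, which encode hypoxia-inducible factor subunits, differed by -1.27 (adjusted p = 0.144) and -0.19 (adjusted p = 0.817). Neither was called.

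Markers of another cell type moved with the lines. Of 8 fibroblast or pericyte markers outside the middle, 4 were called higher in 1G11-SOD3 and none lower. *Col1a1* and *Pdgfrb* differed by 3.096 and 2.39 log2 units. *Lum* and *Col1a2*, near background on all 1G11-mock arrays, were at least 2.47-fold and at least 1.5-fold higher. The summed intensity of that list was 20787 to 35274 on the 1G11-mock arrays and 38512, 33230 and 170143 on the 1G11-SOD3 arrays. The last value rested on *Dcn*, which read 14.78, 14.48 and 14.04 in 1G11-mock and 13.51, 13.59 and 17.05 in 1G11-SOD3 and was not called. Without *Dcn* the sums were 3928 to 7212 and 20938 to 34046. *Rgs5*, a pericyte marker, was near background on every array. The endothelial list summed to between 20136 and 29520 on the 1G11-mock arrays and between 12774 and 15255 on those of 1G11-SOD3, and *Vwf* was called lower (-1.65, adjusted p = 0.00327). The epithelial list summed to between 67208 and 111941 on the 1G11-mock arrays and between 44329 and 84333 on those of 1G11-SOD3. No epithelial or leukocyte marker was called. The part of these differences in the values of *Aldoc*, *Eno2*, *Pdk3* and *Pgm1* was not tested, and a change in the mix of cells and a change within cells cannot be told apart in such samples.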

How the data were processed

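RNA of 3 1G11-mock and 3 1G11-SOD3 samples was hybridized to SurePrint Mouse G3 arrays (Agilent, single color). For each array the authors deposited scanner intensities from Agilent Feature Extraction 10.7.3.1, before any normalization, together with log2 values that, per their methods, were normexp corrected (offset of 50) and quantile normalized. Here mean spot intensities were corrected against the local background median, control spots were removed, and quantile normalization was done on the log2 scale (limma 3.58.1, R 4.3.3). Outlier-flagged spots were left out. Spots of a probe were averaged, with the middle kept apart. The lines were compared by limma with Benjamini-Hochberg adjustment over all 55961 features, and called means an adjusted p under 0.05 with a difference beyond 2-fold. Differences are 1G11-SOD3 minus 1G11-mock. A gene is represented by its probe outside the middle with the highest mean. Where all 3 arrays of a line had a probe near background (not flagged well above it), the fold is a bound against the lowest signal well above background. Such a bound concerns the measured means and takes in neither their error nor the position adjustment.

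The named genes are all 37 members by step. Values on every array are given for each called gene, *Slc2a1*, *Hk2*, *Pfkfb3*, *Pkm2*, *Ldha*, *Slc16a3*, *Pdk1*, *G6pdx*, *Gpi1*, *Mpc2* and *Gapdh*, and, chosen after their values were seen, for *Hk1*, *Tpi1* and *Tkt*. Other pathway genes are named where called, and *Hif1a* and *Epas1* were added after their values were seen. Members, lists and tests were chosen with earlier results of these data known. The band around the middle was also drawn afterwards.

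The position surface was a Gaussian smoother (SD of 10 rows and 6 columns) over spots that 3 or more arrays had well above background. It was also taken from dimmer spots, where its size may not hold. Over all 6435 probes in the middle, the median difference was 0.183 before the adjustment and -0.662 after it. Of these probes, 1195 were well above background on every array. Over probes printed 10 times, the SD of the line difference among copies fell from 0.504 to 0.16 log2 units. Same-numbered arrays of the lines share a slide column. Their deviations correlated at 0.1666, 0.1013 and 0.1567, against -0.1696 to 0.0561 for arrays of unlike number. The numbers were therefore taken as pairs in an alternative fit, which called 2296 features, against 1692 in the main fit. Unless given as paired or for same-numbered arrays, printed differences and p-values come from the fit without the pairing. The study's methods state no block, and the paired fit is an alternative. On simulated data of 55802 features, 54 of 97 differences of 2 log2 units and 89 of 103 of 3 units were found, with 3 unchanged features called. The simulated noise was independent, held no position effect, and the differences were given to bright features only. It therefore does not measure false calls that come from position. The number of arrays limits the precision. Tables used pandas 2.3.3 and numpy 2.4.6, and figures matplotlib 3.10.9, under Python 3.11.15. Alternatives are given in the closing section.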

Additional observations from a re-analysis of the deposited data

How the results depend on the processing

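Outside the middle the count of 3 called member probes stayed between 2 and 4 under 14 of 15 alternatives with all arrays, and was 5 with Agilent's processed signal (75th-percentile scaled), where *Slc16a3* (1.13, adjusted p = 0.0438) and *Pdk2* (-1.25, adjusted p = 0.0286) passed and all features shifted by -0.52 (log2). With the replicate block (the pairing by number) the count was 3 outside and 4 in the middle, and no call of a named gene changed. Leaving out each array in turn gave 2 to 4 outside. In the middle the 4 calls became 2 with no background correction and 2 with the position adjustment, namely *Mpc2* and *Pfkfb3*, the latter near background on all 6 arrays so that its adjusted value gives no direction, and 2 to 4 without each array. *Pdk4* and *Slc16a3* there lost their calls without 1G11-mock replicate 2 (1.11 and 1.10) and without 1G11-SOD3 replicate 1 (1.03 and 0.99) or 2 (1.08 and 1.07), and *Slc16a3* also without 1G11-SOD3 replicate 3 (1.13). The median of the member genes, 0.02, was 0.10 with 75th-percentile scaling (all features, -0.33), 0.10 with the middle left out, 0.064 with the position adjustment, and -0.066 to 0.031 without each array. Of the 15 genes followed singly, differences near 0 changed sign: *Slc2a1* to 0.14 with the processed signal, *Pkm2* to 0.052 with 75th-percentile scaling, *G6pdx* to -0.13 with the processed signal and -0.062 with the position adjustment, and, over single arrays left out, *Pkm2* (-0.371 to 0.078), *Ldha* (-0.06 to 0.44), *G6pdx* (-0.22 to 0.57) and *Mpc2* (-0.003 to 0.269). *Tkt* ranged from -1.02 to -0.10 with all arrays. *Aldoc* and *Eno2* were called under every alternative, the latter at 1.201 to 1.76 with all arrays. The causes were not tested. Leaving out the middle gives no value for its spots. Signal near background limits *Slc2a3*, *Slc16a1*, the middle spots of *Pfkfb3* and *Pfkfb4* and the 1G11-mock values of *Aldoc* and *Slc16a3*.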
